A study of Mus musculus with 15 samples.

Results

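Tmbim4, Vps28, Dctn5, Palb2, Znhit3, Snrpb2, Vamp4 and Ambra1 are 8 mouse genes with high Miz1 peaks at their promoters in both embryonic fibroblasts and splenic B cells. They were selected on measured values, as genes led by Miz1 in both cell types, so their Miz1 values are given as a description with no test. They are 8 of 540 protein-coding genes with a Miz1 promoter peak in both cell types, out of 22219 protein-coding genes in the annotation. Dctn5 and Palb2 share a peak, so the 8 genes stand for 7 Miz1 sites, and values at that site belong to both genes.

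Miz1, encoded by Zbtb17, is a POZ-domain zinc finger transcription factor that activates promoters on its own and can repress them when Myc binds to it. Promoters of genes for vesicle traffic and autophagy, Vamp4 and Ambra1 among them, are known as Miz1 targets. Myc binds E-box DNA together with Max and is found at most promoters that carry RNA polymerase II (RNAPII), the enzyme that transcribes protein-coding genes.

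Chromatin immunoprecipitation with sequencing (ChIP-seq) had been run on 3T9 embryonic fibroblasts, prepared at E13.5, with floxed c-myc alleles, into which the MycER fusion had been introduced by infection in culture. The fusion is inactive until 4-hydroxytamoxifen (OHT, 400 nM) binds it, and every fibroblast sample carries it. At 0, 10, 20 and 30 min and at 2 and 4 h of OHT, Myc was mapped with antibody N262 and RNAPII with N20. Miz1 was mapped with antibody 10E2 in the same fibroblasts, for which the labels list no OHT. Miz1 was also mapped in wild-type C57BL/6 splenic B cells, taken with B220 beads from animals 6 to 8 weeks old. Each group is 1 library, so no difference between times or cell types has a replicate check. At 0 min RNAPII had a narrow promoter peak at 8 of 10 fibroblast markers and 0 of 8 B cell markers; Thy1 and Fap were the fibroblast markers without one. T cell Lck and myeloid Cd14 each had one. The B cell label could not be checked in this way, since RNAPII was mapped in fibroblasts only.

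A Miz1 promoter peak, meaning a peak within 1000 bp of a transcription start site (TSS) of a protein-coding transcript, was present at 8.25% of genes in fibroblasts, at 5.48% in B cells and at 2.43% in both. The choice of the 8 genes fixes their presence here, so nothing is read from these shares. Sequences at the 7 summits, the highest points of the fibroblast peaks, are shown first because the Miz1 signal rests on them. For Vamp4 and Ambra1 the nearest match to the word described below is shown as well. All are read from NCBIM37 (mm9), 5′ to 3′ on the strand of the gene named, and stop at annotated exons or are kept to 30 bases there. Capitals mark TCGAT or its reverse complement ATCGA, the 5-base word described below.
Tmbim4, chr10:119645730-119645805: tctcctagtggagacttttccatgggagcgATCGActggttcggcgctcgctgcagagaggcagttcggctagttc
Vps28, chr15:76456547-76456576, in the 3′ UTR of Tonsl: aaaagccgagtgccgatcaatggatttggc
Dctn5 and Palb2, Dctn5 strand, chr7:129276466-129276554: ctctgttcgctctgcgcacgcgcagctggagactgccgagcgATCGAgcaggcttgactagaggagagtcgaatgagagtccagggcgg
Znhit3, chr11:84729915-84730005: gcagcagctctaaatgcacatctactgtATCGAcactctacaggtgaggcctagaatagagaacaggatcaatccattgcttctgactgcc
Snrpb2, chr2:142888693-142888774: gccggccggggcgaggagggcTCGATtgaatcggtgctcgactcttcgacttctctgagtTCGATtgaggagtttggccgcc
Vamp4, chr1:164500637-164500666, at the summit: ccgttgcctgagcctgcccccttgcgccct
Vamp4, nearest match, chr1:164500617-164500646: agcgccgagacgcTCGATctccgttgcctg
Ambra1, chr2:91570208-91570290: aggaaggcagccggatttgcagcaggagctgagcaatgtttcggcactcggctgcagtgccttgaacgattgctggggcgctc
Ambra1, nearest match, chr2:91570306-91570335, in an exon: ggcgttcgtgtgtTCGATgatcttttgcgg

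TCGAT was not searched for in advance. It is the 5-base word, counted on both strands, whose share in the 50 strongest other Miz1 promoter peaks bound in both cell types stood highest above its share at all protein-coding TSSs, among words in at least 20% of those peaks. Within 100 bp of the fibroblast summit it lay in 31 of those 50 peaks (62%), in 89 of all 467 other shared promoter peaks (19.1%), and in 4.95% of the 22219 windows of the same length around protein-coding TSSs. In windows centred 1000 bp to either side of all fibroblast Miz1 peaks it lay in 4.45%. Within 100 bp of the summits of all Miz1 peaks, promoter or not, it lay in 5.35% in fibroblasts and 7.79% in B cells. The high share thus belonged to the strongest shared promoter peaks and not to Miz1 peaks at large. The 7 sites took no part in choosing the word, and 6 of the 7 held it. Vps28 was the site without it.

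At the Dctn5/Palb2 site the centre of the only match lay 1 bp from the summit. It lay 13 bp from the summit at Tmbim4 and 15 bp at Znhit3. Snrpb2 had 2 matches, the nearer at 17 bp, Vamp4 had 3, the nearest at 20 bp, and Ambra1 had 1 at 68 bp. In the 31 other peaks with a match, the median distance to the summit was 19 bp. All of the sites with the word except Ambra1 therefore had it within 50 bp of the summit, as had 26 of those 31 peaks.

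Vps28 carried a related word, CGATC or its reverse complement GATCG, with 3 matches centred 1, 64 and 65 bp from the summit. The matches at 64 and 65 bp overlap, as 1 place read on both strands. That word overlaps TCGAT by 4 letters and was also present at Tmbim4, Dctn5/Palb2 and Vamp4, making 4 of 7 sites. It lay in 48% of the 50 strongest other peaks and in 9.37% of the TSS windows, and was not searched for in advance either. By the ratio of these shares, GTCGA or TCGAC stood between TCGAT and CGATC, at 64% and 7.36%. That word was not counted at the 7 sites. It stands in the sequences printed above for Tmbim4, Dctn5/Palb2, Znhit3 and Snrpb2, which are shorter than the windows searched. The longer palindrome ATCGAT, which contains TCGAT, lay in 22% of the 50 strongest other peaks and in 0.486% of the TSS windows, but in 0 of the 7 sites. CACGTG, the canonical E-box of Myc, was also in 0 of 7, beside 6.21% of the 467 other shared peaks and 5.51% of the TSS windows. Absence says only that these letters were not within 100 bp of the summit. The GC content of the 7 windows was 57.8%, close to the 58.9% of all TSS windows.

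Longer runs were shared by some pairs. The Vps28 and Ambra1 windows held the same 13 bases, agccgagtgccga, on opposite gene strands. Among the 467 other shared peaks the run was found once, at Hdgf, whose Miz1 fold enrichment was 145 in fibroblasts and 148 in B cells, and it was in 1 of the 22219 TSS windows, those of the 8 genes included. Dctn5/Palb2 and Snrpb2 shared 14 bases, tctgcgcacgcgca, which were in 0 of the 467 other peaks and 6 of the TSS windows.

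Miz1 values are taken gene by gene, beginning with vesicle traffic and autophagy. Fold enrichment is the authors' ratio of ChIP fragments to the control's background at the summit, and pileup is the number of overlapping fragments there. Ranks are among the 540 genes. Vps28 is a subunit of ESCRT-I, which sorts ubiquitinated membrane proteins into endosomal vesicles. Its peak (chr15:76455867-76457032) had a fold of 273 and a pileup of 366 in fibroblasts, and 66.7 and 395 in B cells. It ranked 3rd by fold in fibroblasts and 93rd in B cells, the widest gap among the 8 genes.

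Vamp4 is a SNARE of the trans-Golgi network and endosomes. In fibroblasts its peak (chr1:164500224-164501117) reached a fold of 131 and a pileup of 176, the lowest of the 8 genes on both scales, and ranked 54th by fold. In B cells the fold was 105 and the pileup 388, which placed Vamp4 18th by fold. Ambra1 is a scaffold protein that acts with Beclin 1 at the start of autophagy. Its values were 168 and 318 in fibroblasts (chr2:91569613-91570609, 31st by fold) and 86.4 and 384 in B cells (52nd).

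Dctn5 encodes a subunit of the pointed end of dynactin, the cofactor of the motor dynein, and Palb2 encodes the protein that joins BRCA1 and BRCA2 in recombinational DNA repair. Their shared peak (chr7:129276094-129277021) had a fold of 246 and a pileup of 330 in fibroblasts, and 83.1 and 392 in B cells. Tmbim4 encodes a Golgi membrane protein of a family that restrains cell death. Its peak (chr10:119645420-119646272) was the highest of all 540 genes by fold in fibroblasts, at 293 with a pileup of 394, and the 4th in B cells, at 142 with a pileup of 391. Tmbim4 was thus near the top in both cell types.

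Snrpb2 encodes a protein of the U2 small nuclear ribonucleoprotein of the spliceosome. It had a fold of 236 and a pileup of 317 in fibroblasts (chr2:142888324-142889237) and 95.7 and 395 in B cells. Znhit3 encodes a zinc finger protein that helps assemble box C/D small nucleolar ribonucleoproteins. Its folds were 242 in fibroblasts (chr11:84729551-84730438, pileup 325) and 86.4 in B cells (pileup 384). Both genes were within the 8 highest by fold in fibroblasts but only 24th and 52nd in B cells.

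The 8 genes are not a strict top list. Of the 8 highest genes by fibroblast fold 6 are among them, while Rpl22 (274, 2nd) and Psmd3 (269, 4th) are not. Just below Snrpb2 came Vps72 at 224 and Ercc2 at 217. Another order uses the larger of a gene's ranks in both cell types. By it the first among the rest were Pex14 (198 in fibroblasts, 143 in B cells), Psma1 (191 and 104) and Cox19 (179 and 103). S100pbp and Yars, which share a peak (205 and 94.5), followed. The larger rank was 15 at Pex14, 20 at Psma1, 23 at Cox19 and 27 at S100pbp and Yars. Among the 8 it was 4 at Tmbim4, 24 at Snrpb2 and 52 to 93 at the others, so most of the 8 stood behind these genes. TCGAT was within 100 bp of the summit at Pex14, at the S100pbp/Yars site and at Rpl22, and not at Psma1, Cox19 or Psmd3.

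**Figure D1:**
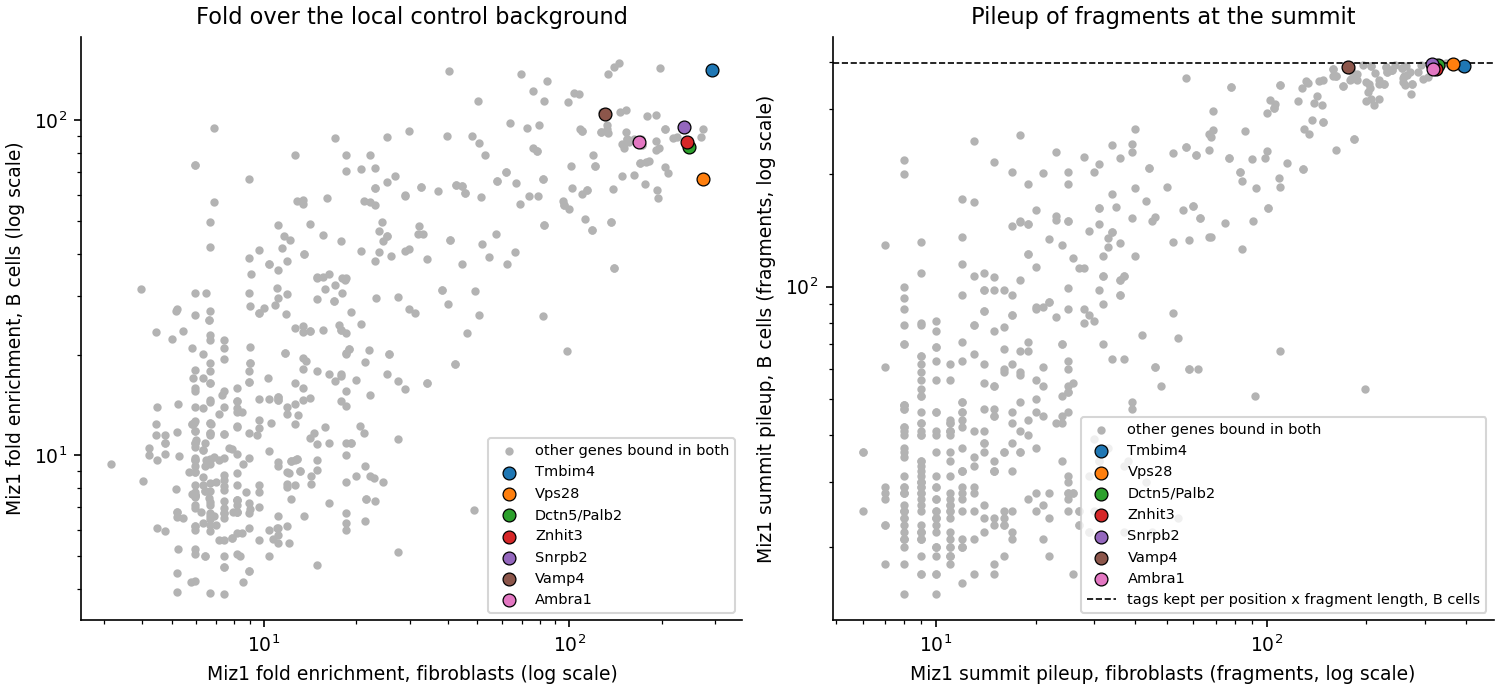
Miz1 fold enrichment (left) and summit pileup in fragments (right) of the 540 genes with a promoter peak in both cell types, 1 point per gene, with fibroblasts on the x axis and B cells on the y axis, all on log scales. The coloured member sites lie at the upper right, spread in B cell fold from 66.7 to 142 but packed between 384 and 395 in B cell pileup, just under the dashed line at 398.

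The B cell pileups of the member sites ran from 384 to 395, and the highest in the whole B cell list was 397. The file headers give at most 2 tags kept per position and a fragment length of 199 bp, with a product of 398. Fragments can reach a base from both strands, so whether this product is the limit of the pileup was not tested. Only 21 of the 4488 B cell peaks reached 384. In fibroblasts the same product is 494, and the highest pileup, at Tmbim4, was 394. The control's background, which the fold divides by, was worked out here as pileup divided by fold. With B cell pileups this close, its order had to be the reverse of the fold order, so that order is no separate observation. In B cells this background was 2.76 fragments at Tmbim4, 3.70 at Vamp4, 4.13 at Snrpb2 and 4.44 at Znhit3 and Ambra1. It was 4.72 at Dctn5/Palb2 and 5.93 at Vps28. In fibroblasts 6 of the 7 sites had the genome-wide background of 1.34 fragments, and Ambra1 had 1.89. The low B cell rank of Vps28 thus stood beside a pileup as high as that of Snrpb2, and the part of the limit on tags in these ranks was not tested.

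Miz1 summits of both cell types lay almost on the same base. They were 1 bp apart at Znhit3, 3 bp at Ambra1, 6 bp at Vamp4, 9 bp at Vps28 and at Snrpb2, 16 bp at Dctn5/Palb2 and 18 bp at Tmbim4, with a median of 9 bp over the 7 sites. All 8 genes had overlapping peaks. Over all 540 genes bound in both, the strongest peaks overlapped at 461 (85.4%), with a median summit distance of 26 bp among those. Strong peaks were the basis of selection, so the short distances are a description and are not read as particular to these genes.

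Against the gene, the fibroblast summit was upstream of the nearest TSS at 7 of the 8 genes, by 31 bp at Tmbim4, 105 bp at Vps28, 44 bp at Dctn5, 51 bp at Palb2, 92 bp at Znhit3, 37 bp at Snrpb2 and 38 bp at Ambra1. At Vamp4 it was 6 bp downstream, in the 5′ UTR. The median over the 7 sites was 38 bp, beside 165 bp over the 540 genes. Those 540 genes had a median Miz1 fold of 12.9 in fibroblasts, while these 8 were selected for strong peaks. The short distance is therefore not read as particular to the 8 genes. B cell summits were 13 to 96 bp upstream at the same 7 genes and 12 bp downstream at Vamp4. The Dctn5 and Palb2 TSSs point away from each other and are 95 bp apart, and the Miz1 summit of either cell type lies between them.

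Surroundings differ among the other sites. At Tmbim4 the summit falls in an intron of an isoform whose TSS is 7092 bp upstream of the one under the peak. No list held a peak of Miz1, Myc or RNAPII within 1000 bp of that upstream TSS. At Vps28 the summit falls in the 3′ UTR of Tonsl, a DNA repair gene on the same strand whose last 26 bp overlap Vps28. Apart from Dctn5 and Palb2, no member peak had another gene's TSS within 1000 bp. The nearest one was that of Tonsl, 3167 bp from the Vps28 summit, followed by Irak3, 6589 bp from that of Tmbim4. Among the 474 distinct promoter peaks of the 540 genes, 66 (13.9%) were shared by at least 2 protein-coding genes, as at Dctn5/Palb2.

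**Figure D2:**
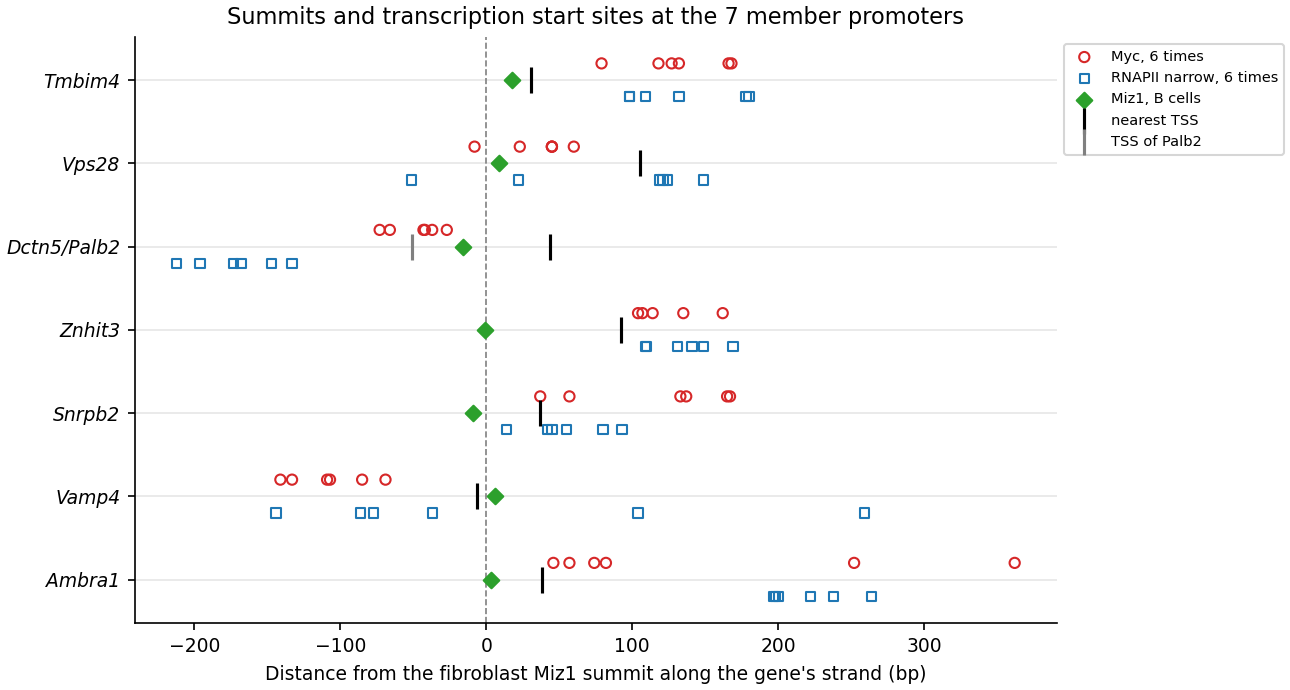
Position of each summit relative to the fibroblast Miz1 summit (0, dashed) in bp along the gene's strand (the Dctn5 strand at the shared site), for B cell Miz1 (diamonds), Myc at each time with a peak (circles), narrow RNAPII at each time (squares) and the nearest TSS (black bars; grey for Palb2). B cell Miz1 summits lie within 18 bp of 0, while Myc and RNAPII summits spread to 362 and 264 bp.

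Myc lay at the same promoters, mostly before OHT. Over all genes, 44.7% had a Myc promoter peak at 0 min, 43.3% at all 6 times, and 1.62% lacked it at 0 min but had it at the 5 later times. Of the 8 genes 7 had one at all 6 times, and Znhit3 had one at the 5 later times only. Among the 540 genes bound by Miz1 in both cell types, 511 (94.6%) had Myc at all 6 times and 13 (2.41%) had the pattern of Znhit3, so the count for the 8 genes is near that of other shared Miz1 promoters.

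Fold enrichment of Myc is the authors' value on each list's own scale and does not measure change between times. At Vamp4 it was 16.9, 24.5, 27.1, 20.7, 33.4 and 23.2 at 0, 10, 20 and 30 min, 2 h and 4 h, the highest of the 8 genes at every time but 30 min. At 30 min the Dctn5/Palb2 site, with 8.8, 22.3, 19.6, 25.01, 25.7 and 19.8 at the 6 times, was higher. Tmbim4 had 8.4, 15.6, 18.7, 18.1, 25.4 and 18.6. The medians of all Myc-bound promoters in the 6 lists were 12.9, 18.5, 20.7, 17.6, 23.2 and 18.3. Vamp4 was above the median at every time, Dctn5/Palb2 below it at 0 and 20 min, and Tmbim4 below it at 0, 10 and 20 min.

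Ambra1 had Myc folds of 11.4, 16.7, 19.4, 14.2, 18.7 and 12.5. Vps28 had 8.76, 10.7, 13.1, 10.9, 17.0 and 9.48, and Snrpb2 7.08, 9.49, 11.2, 11.9, 14.3 and 12.5. These genes were under the median of Myc-bound promoters at each time. Znhit3 was the lowest from 10 to 30 min and at 2 h, with 9.09, 9.27, 8.42, 12.7 and 11.2 at the 5 later times, and 11.3% to 21.9% of Myc-bound genes had a lower fold in the same list. For Vamp4 that share was 58.9% to 69.8%.

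High Miz1 thus did not go with high Myc at these genes. The median Myc fold over the member sites with a peak was 8.78 at 0 min (6 sites) and 12.5 at 4 h (7 sites), beside 17.3 and 22.5 over the 50 strongest other shared Miz1 peaks with Myc, and 12.9 and 18.3 over all Myc-bound genes. Across the shared promoter peaks with Myc, the rank correlation of fibroblast Miz1 fold and Myc fold was 0.019 at 0 min (449 peaks). At 4 h it was 0.011 (463 peaks). Miz1 and Myc were mapped in the same cells but not the same library, and the labels list no OHT for Miz1.

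**Figure D3:**
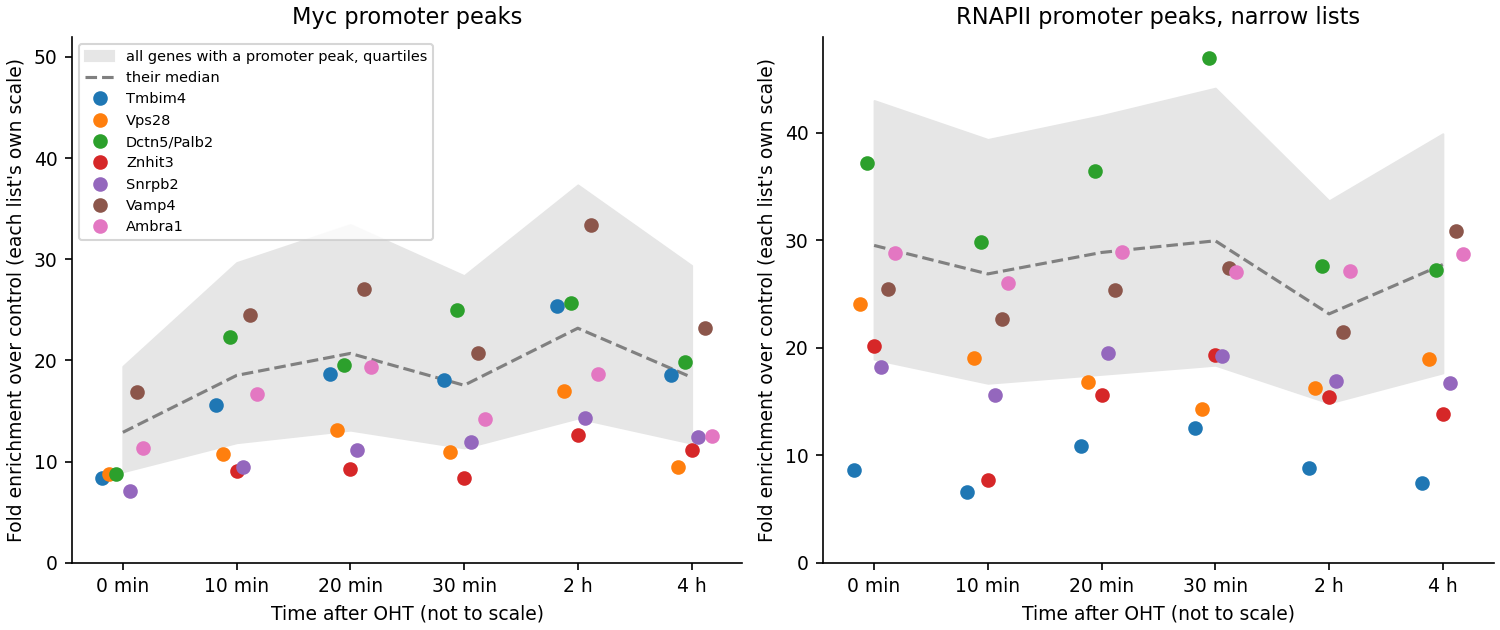
Fold enrichment over control of Myc (left) and narrow RNAPII (right) promoter peaks at the 7 member sites at 6 times after OHT, 1 library each, offset sideways for legibility; the grey band is the quartile range of all genes with a promoter peak in the same list and the dashed line their median. For Myc only Vamp4 lies above the median at every time, Znhit3 has no point at 0 min, and Tmbim4 has the lowest RNAPII fold at every time.

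Myc summits lay close to those of Miz1. At 4 h the distance was 45 bp at Vps28, 43 bp at Dctn5/Palb2, 57 bp at Snrpb2 and at Ambra1, 85 bp at Vamp4, 162 bp at Znhit3 and 168 bp at Tmbim4. All 8 genes were within 200 bp, with Dctn5 and Palb2 sharing their distance, as were 44.1% of the 528 genes bound by Miz1 in both cell types and by Myc at 4 h. The 8 genes were selected for strong Miz1 peaks and the 528 were not. Other peaks of like strength were not compared for this distance, so the closeness is not read as particular to the 8 genes. The 8 genes were also within 200 bp at 10 and 30 min, and Ambra1 was the exception at 20 min (362 bp) and 2 h (252 bp). The Myc summit was downstream of the Miz1 summit in the direction of transcription at every time with a peak at Tmbim4, Znhit3, Snrpb2 and Ambra1, and upstream at every time at Vamp4. At the shared site it lay on the Palb2 side of the Miz1 summit at all 6 times, 27 to 73 bp away.

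RNAPII was at all of these promoters. Over all genes, 43.5% had a narrow RNAPII promoter peak at all 6 times and 41.3% a broad one; narrow and broad are the authors' 2 ways of calling each library. All 8 genes had a narrow peak at all 6 times, beside 505 (93.5%) of the 540 genes bound by Miz1 in both cell types. In the broad lists 7 had one at all 6 times, beside 499 (92.4%) of the 540, and Tmbim4 lacked one at 0 and 10 min.

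Tmbim4, first by Miz1, had the least RNAPII. Its narrow fold was 8.65, 6.58, 10.9, 12.5, 8.86 and 7.40 at the 6 times, and only 1.94% to 12.1% of genes with a promoter peak were lower in the same list. Its broad folds at the 4 times with a peak were 8.1, 12.6, 7.29 and 5.5. The highest narrow folds were at the Dctn5/Palb2 site, with 37.2, 29.9, 36.4, 46.9, 27.6 and 27.2, except at 4 h, when Vamp4 and Ambra1 exceeded it. There the RNAPII summit lay 133 to 212 bp from the Miz1 summit on the Palb2 side at every time, within 59 bp of a Palb2 TSS.

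Ambra1 had narrow folds of 28.8, 25.99, 28.9, 27.1, 27.2 and 28.7, and Vamp4 had 25.4, 22.7, 25.4, 27.4, 21.5 and 30.8. Vps28 had 24.1, 19.0, 16.8, 14.3, 16.2 and 19.0. Snrpb2 had 18.2, 15.7, 19.5, 19.3, 16.9 and 16.8, and Znhit3 20.2, 7.74, 15.7, 19.3, 15.4 and 13.9. Vps28, Snrpb2 and Znhit3 lay under the median of RNAPII-bound promoters at every time.

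Most of these genes had few RNAPII peaks beyond the promoter. Cover means the percent of a gene's bases, more than 1000 bp past the start, inside an RNAPII peak, and it depends on depth, which ran from 15276996 tags at 0 min to 36396286 at 20 min. In the narrow lists it stayed at or under 2.99% at all times at Tmbim4, Dctn5, Palb2, Vamp4 and Ambra1. Each was under the median of other genes of like length at every time, except Ambra1 at 10 min (1.09% beside 0.757%). At 0 min those medians ran from 0.514% for Ambra1, the longest gene, to 7.37% for Dctn5. At these 5 genes and at Vps28, all of the cover came from the tail of the promoter peak. Vps28, a short gene with a body of 2940 bp, had 30.7%, 31.4%, 28.8%, 16.4%, 35.2% and 25.1%, and its cover was lower than the median of 826 other genes of like length (within 1.5 times) at every time, which was 53.3% at 0 min.

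Znhit3 and Snrpb2, the genes for RNA processing, were the members with RNAPII peaks inside the gene apart from the promoter peak. Znhit3, with a body of 4417 bp, was covered over 74.4%, 81.2%, 88.9%, 73.3%, 91.5% and 100% at the 6 times. Among 1148 other genes of like length the medians were 35.6%, 52.04%, 70.1%, 38.3%, 48.6% and 34.7%, and 55.7% (at 20 min) to 73.5% (at 4 h) of those genes had less cover than Znhit3. At 4 h a narrow peak of 11226 bp covered the whole gene and ran 4934 bp past its 3′ end, into Myo19, which is transcribed toward Znhit3 and overlaps it by 277 bp; ChIP-seq does not tell the strands apart. Broad lists gave Znhit3 0%, 8.33%, 51.8%, 0%, 37.4% and 33.4%, so the extent of cover depended on the way of calling.

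Snrpb2 had a narrow cover of 8.37% at 0 min, 18.0% at 10 min, 43.5% at 20 min, 14.5% at 30 min, 42.6% at 2 h and 34.6% at 4 h. The 2 h and 4 h values were higher than that at 0 min, from libraries of 19859793 and 16268203 tags beside 15276996. In 1846 other genes of like length the medians at 0 min, 20 min, 2 h and 4 h were 14.9%, 36.6%, 23.3% and 17.4%. Broad lists covered 1.60% of the gene at 10 min and 0% at the other times, and with 1 library per time the difference has no replicate check.

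The mean narrow cover of the 8 genes at 0 min, 30 min and 4 h came to 14.8%, 13.4% and 20.3%. Without Znhit3 it was 6.23%, 4.89% and 8.97%, so that gene decides the mean. The median over the 8 was 1.46%, 1.09% and 1.33%, beside 4.34%, 5.34% and 4.75% over 9734 genes of at least 3000 bp with an RNAPII promoter peak at 0 min. Those 9734 genes were not matched to the 8 for length.

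**Figure D4:**
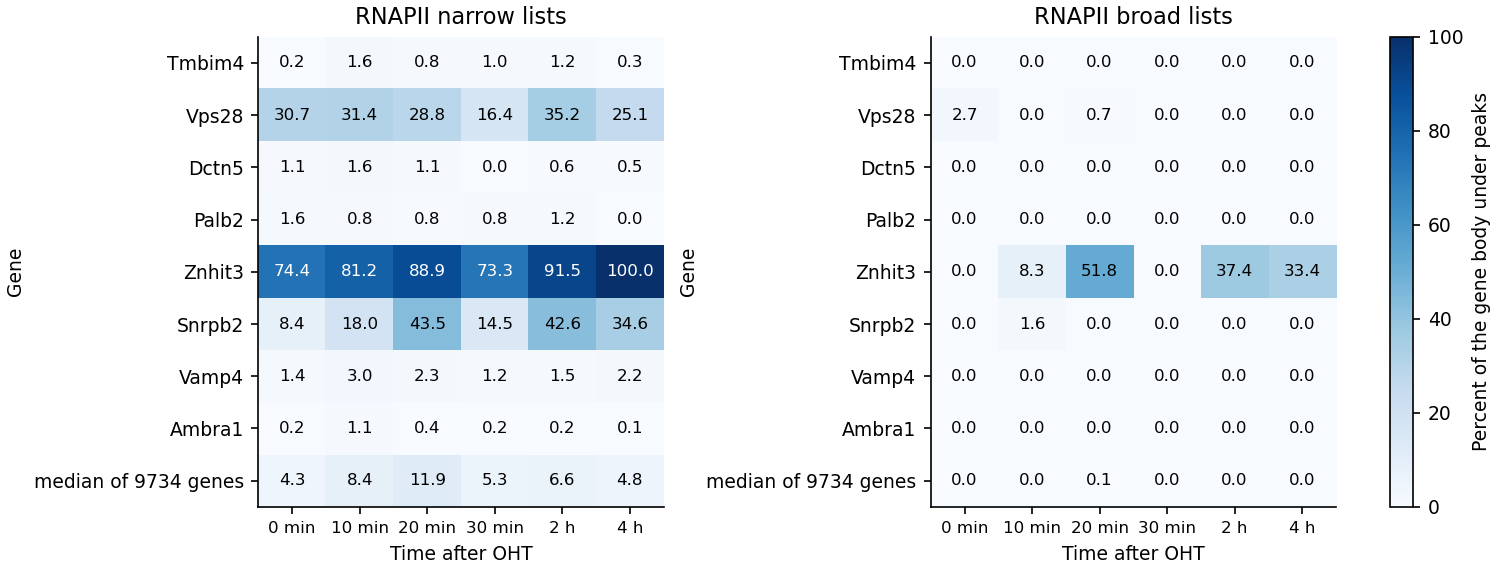
Percent of each member's gene body (the gene after its first 1000 bp) under narrow (left) and broad (right) RNAPII peaks at 6 times after OHT, 1 library per column, with the median of 9734 genes in the bottom row. Znhit3 is covered over at least 73.3% at every time in the narrow lists, and Snrpb2 ranges from 8.37% to 43.5%.

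Of 57 matched genes for partners of the encoded proteins, 9 (15.8%) had a Miz1 promoter peak in fibroblasts, 7 (12.3%) in B cells and 4 (7.02%) in both, beside 8.25%, 5.48% and 2.43% of all genes. These differences were not tested, and the shares of all genes include genes without Myc or RNAPII. Myc occupied 10378 promoters at 4 h, and 1716 of those genes also had fibroblast Miz1. For narrow RNAPII at 0 min the numbers were 10544 and 1694. Most partners carried Myc and RNAPII, as given below, so no excess of Miz1 at partner genes is read from these shares. The high ones were Dctn6, another subunit of the pointed end of dynactin, with folds of 149 in fibroblasts and 68.4 in B cells, and Snrpa1, the U2 protein that pairs with the product of Snrpb2, with 133 and 96.9. Within 100 bp of the summit, Dctn6 had TCGAT at 1 place, the palindrome ATCGAT, which counts on both strands. Snrpa1 had TCGAT once and no ATCGAT there. The other 2 were Ulk2, a kinase that starts autophagy (11.2 and 35.8), and Capzb, an actin-capping subunit also found in dynactin (5.96 and 10.6), neither with TCGAT. At Capzb the fibroblast and B cell peaks did not overlap, with summits 668 bp apart. Its fibroblast pileup was 8, under the list median of 9.

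By group, 4 of 11 dynactin genes had a Miz1 peak in fibroblasts, 1 of 9 U2 genes, 1 of 9 autophagy genes, 1 of 6 recombination genes (Brca1, fold 5.29), 1 of 3 SNARE partners of Vamp4 (Stx16, 3.97) and 1 of 5 relatives of Tmbim4 (Grina, 13.97). None of the 8 ESCRT-I genes and none of the 6 snoRNP assembly genes had one. No group is called enriched from such counts. Of the 57 genes 54 (94.7%) had a Myc promoter peak at 4 h and 53 (93.0%) a narrow RNAPII promoter peak at 0 min, beside 46.7% and 47.5% of all genes.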

How the data were processed

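Peak lists of 14 of the 15 samples were used, 20 lists in all; the input library was not used here. The submitters' processing notes name BWA 0.6.2-r126 and mm9. MACS 1.4.2 (p cutoff 1e-08) gave the Myc and narrow RNAPII lists and MACS 2.0.9 the broad RNAPII and Miz1 lists, each on 1 library against a control, per the file headers. The Miz1 cutoff was 1e-02 in fibroblasts and 1e-05 in B cells, with 10164509 and 24237295 ChIP tags; Myc libraries held 28132063 to 33431447 tags. Tags per peak are raw counts, significance is a score (−10 times log10 p) or −log10 p and −log10 q, fold enrichment is a ratio to the control background, the false discovery rate is a percent, and the pileup is a signal, all as deposited by the authors; folds, pileups and p ranked or filtered peaks within a list, and values of different lists are set side by side only as descriptions.

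From these, the strongest peak by fold within 1000 bp of any TSS of a gene's protein-coding transcripts (GENCODE vM1, NCBIM37, mitochondrial genes left out) was its promoter peak. The gene body was the longest protein-coding transcript after 1000 bp. Named genes were the 8, genes under the same peak, and partners bound in both cell types. The first 5 of the other genes by the larger rank were also named. Rpl22, Psmd3, Vps72, Ercc2, Hdgf and the other partners and neighbours were named after their values were seen. Of 58 partner symbols 57 matched. The genes, the lists and the settings were chosen with earlier results of these data known. Peak assignment was tested on simulated peaks. Python 3.11.15, pandas 2.3.3 and pyfaidx 0.9.0.4 were used, and no test was run, since every group is 1 library.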

Additional observations from a re-analysis of the deposited data

How the results depend on the processing

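No paired analysis was possible because every group is 1 library. All 8 genes kept a Miz1 peak in both cell types with windows of 500 or 2000 bp, with peaks above the list's median fold and with the stricter p cutoff in both lists. Taking the outermost TSS moved the median Miz1 distance from 38 to 44 bp. With Myc peaks above each list's median fold, 2 of the 8 genes (Vamp4 and Ambra1) kept Myc at all 6 times in place of 7. With RNAPII peaks above each list's median fold 6 kept RNAPII at all times, and 7 did with lists of equal length or the broad lists. These medians are over all peaks of a Myc or RNAPII list and lie under the medians of promoter peaks used above. At 0 min they were 9.83 beside 12.9 for Myc and 12.49 beside 29.52 for narrow RNAPII. The mean gene-body cover at 0 min, 30 min and 4 h was 0.340%, 0% and 4.18% in the broad lists and 18.2%, 17.2% and 23.4% without only the first 500 bp. After the data had been seen, the annotated gene span was tried (15.5%, 14.2% and 21.1%) and Znhit3 left out (6.23%, 4.89% and 8.97%). Lists of equal length left the mean cover as it was at these times. Partner genes with Miz1 in fibroblasts fell from 9 to 5 above the median fold. TCGAT, also added after seeing the data, was near the summit of 7 genes, and of 6 within 50 bp. The cause of these differences was not tested. A p cutoff on libraries of unequal depth limits all counts of peaks.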
